A study of Macaca fascicularis with 86 samples.

Results

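The yolk sac of a primate embryo is lined by endoderm that descends from the hypoblast, the epithelium that lies under the epiblast before gastrulation. Before the liver forms, this endoderm makes many of the secreted proteins that hepatocytes make later, among them apolipoproteins, carrier proteins and fibrinogen. The anterior part of the hypoblast layer is also known for secreted antagonists of NODAL, BMP and WNT signalling, such as CER1 and DKK1. The comparison set 12 regions of an E20 embryo of the crab-eating macaque (Macaca fascicularis) against 6 regions of E18 embryos of the same species, and asked which endoderm genes were shared and which differed.

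The 12 E20 regions were all those titled section 3, 4 or 5, with 3, 6 and 3 regions, and came from 1 embryo. The 6 E18 regions were those of 50 E18 regions with the highest mean log2(TPM + 1) of APOA1, TTR and APOA2, which encode 2 apolipoproteins of high-density lipoprotein and a carrier of thyroid hormone and retinol-binding protein. They are called the APOA1-high E18 regions below. Of these, 4 came from E18 embryo 1 (15 regions) and 2 from E18 embryo 2 (35 regions). The 18 regions compared are part of 86 in the series. Each is a laser-captured piece of a cryosection of 5 to 50 cells, sequenced as polyadenylated RNA (Geo-seq). All 3 embryos were cryosectioned at gastrulation, and the labels give no experimental treatment or genotype. The labels number sections and sectors but name no germ layer, no hypoblast and no yolk sac. Regions of 1 embryo are not replicates of a stage, and E20 has 1 embryo. In captured pieces of tissue, fewer cells of a type and less RNA per cell cannot be told apart.

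The values that chose the E18 regions fell off without a gap at the threshold. The score was 9.54 in embryo 1 section 3 sector 5, 7.21 in embryo 1 section 4 sector 2 and 7.20 in embryo 1 section 1 sector 3. It was 5.93 in embryo 2 section 6 sector 7, 5.67 in embryo 1 section 3 sector 4 and 5.06 in embryo 2 section 4 sector 3. The next E18 regions, all of embryo 2, scored 4.96, 4.42 and 4.29. The 3 highest regions lie further from the regions left out than the last 3 do. The E20 regions scored 9.89 to 12.58 with a median of 11.76, so none was as low as the highest E18 region.

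**Figure D1:**
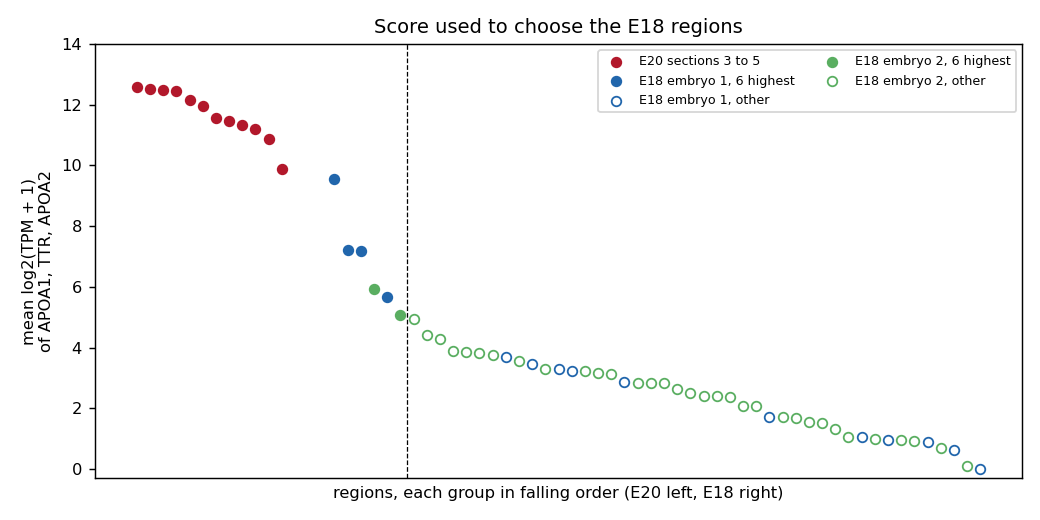
The vertical axis is the mean log2(TPM + 1) of APOA1, TTR and APOA2, and each point is 1 region, with the 12 E20 regions of sections 3 to 5 on the left and the 50 E18 regions on the right, each in falling order. Filled E18 points left of the dashed line are the 6 regions compared, and the lowest of them, at 5.06, lies beside an open point at 4.96.

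By TPM, APOA1 ranged from 3658 over a median of 11872 to 23587 in the E20 regions. In the APOA1-high E18 regions it was 4606, 3436, 2043 and 413 in embryo 1 and 90.9 and 105 in embryo 2. TTR spanned 517 to 2034 TPM in the E20 regions (median 1147) and 30.9 to 769 in the APOA1-high E18 regions (median 66.8). APOA2 spanned 448 to 6652 TPM in the E20 regions (median 2819) and 2.55 to 116 in the APOA1-high E18 regions (median 13.6). APOA1 and TTR overlapped between the groups through embryo 1 section 3 sector 5, and APOA2 did not. These 3 genes chose the E18 regions and are described without a test.

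Depth is unknown, since TPM keeps no read counts. The number of genes that reached 1 TPM was 8180 to 10674 in the E20 regions and 9963 to 12000 in the APOA1-high E18 regions. Mitochondrially encoded genes held 13.45% to 23.9% of the summed TPM in the E20 regions and 8.91% to 24.95% in the APOA1-high E18 regions. A listed 0 can be a missed gene: HPRT1, which most cells use, was listed at 0 in 3 of 12 E20 regions and 1 of 6 APOA1-high E18 regions, while ACTB and GAPDH never were.

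By their marker genes, the APOA1-high E18 regions were not hypoblast alone. GATA6, a transcription factor of hypoblast and its derivatives, stood at 7.70 to 23.1 TPM in them, against a median of 11.01 in the other 44 E18 regions, and GATA4 reached 9.26 TPM. The pluripotency gene DPPA5 stood at 10.5 to 413 TPM, and SOX2, a factor of epiblast and neural ectoderm, was 126 TPM in embryo 2 section 4 sector 3 and 19.9 to 24.1 TPM in the 3 highest regions. COL3A1 and HAND1, genes of mesenchyme, reached 198 and 436 TPM in embryo 2 section 6 sector 7. In embryo 1 section 3 sector 5, the hormone subunit CGA stood at 1683 TPM and CD74, a gene of antigen-presenting cells, at 49.6 TPM. CGA was also present elsewhere at lower levels, at 10.1 to 154 TPM in the rest of the APOA1-high E18 regions and 32.7 to 552 TPM in the E20 regions. The trophoblast list level of that region was 4.15, against 1.14 to 2.70 in the rest of the APOA1-high E18 regions. Its immune genes NKG7 and TYROBP stood at 387 and 175 TPM. The E20 regions had SOX2 listed at 0 in all but 1 region, where it was below 1 TPM, and held AFP, APOA1 and TTR at 517 TPM or more in all 12. They also carried mesenchyme and blood genes: COL3A1 at 88.6 to 1505 TPM and the embryonic globin HBZ at 0 to 3380 TPM. The E20 regions are therefore named by their sections and the E18 regions by the genes that chose them.

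Secreted plasma proteins separated the groups by the widest margin, NODAL-related and anterior signalling genes stood lower at E20, and genes of uptake, iron handling, epithelium and basement membrane gave few calls. A gene was called higher or lower in the E20 regions when its mean log2(TPM + 1) differed by at least 2 and the regions of the groups did not overlap. This rule is no test. Genes entered if 6 or more of the 18 regions had a TPM of 1 or higher. Of these 11243 genes, 158 were called higher (1.41%) and 431 lower (3.83%), with a median difference of -0.44 over all genes. Quantile normalization moved that median to -0.041 and gave 273 higher and 254 lower calls, so the split between directions, 26.8% higher against 51.8% higher after it, depends on scaling. Of 171 genes in 11 endoderm lists, 155 were in the table and 134 passed the filter. Of those, 32 were called higher and 4 lower, with a median of 1.19. Without the 3 genes that chose the regions, 31 of 131 were higher, with a median of 1.17.

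**Figure D2:**
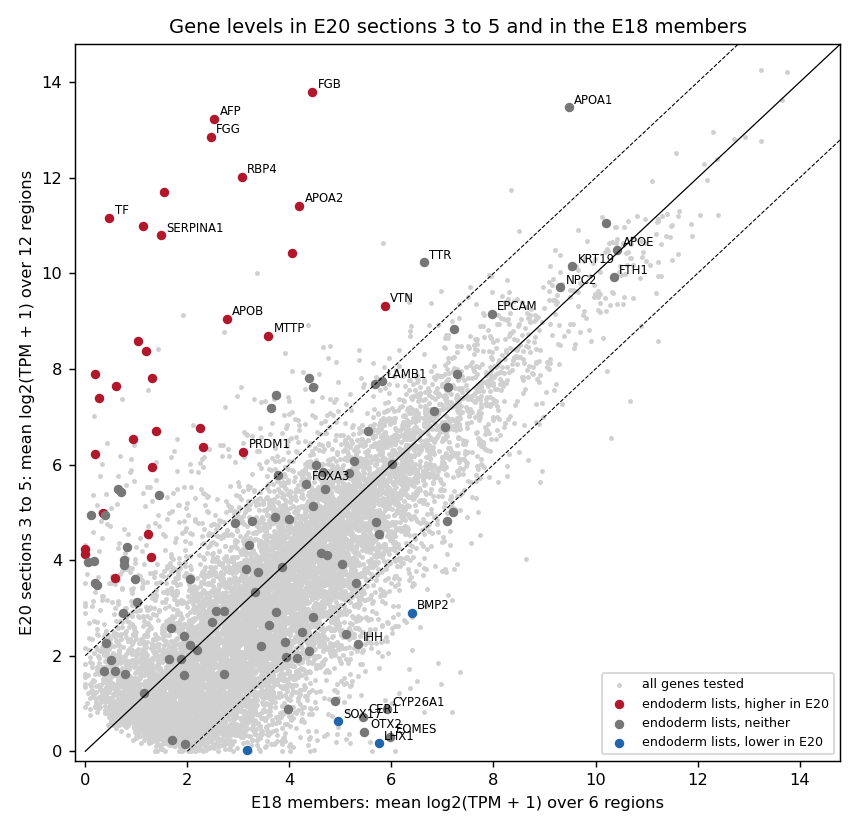
Each point is a gene, with mean log2(TPM + 1) over the 12 E20 regions on the vertical axis and over the 6 APOA1-high E18 regions on the horizontal axis. Coloured points are endoderm list genes, the solid line marks equal levels and the dashed lines a difference of 2 on the log2 scale. AFP, TF and the fibrinogen genes lie at 9 or more above the solid line, APOE and FTH1 lie on it, and LHX1, EOMES and OTX2 lie along the bottom edge.

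Plasma carrier proteins held the largest mean differences in the higher direction, those of AFP and TF. Alpha-fetoprotein (AFP), the main serum protein of the early embryo, had 986, 11723 and 33654 TPM as lowest, median and highest value in the E20 regions, against 1.60, 2.75 and 49.3 TPM in the APOA1-high E18 regions. No E18 region reached the lowest E20 region, and the mean difference was 10.71 on the log2 scale. Transferrin (TF), the iron carrier, had 213, 2987 and 6811 TPM in the E20 regions, against 0, 0.169 and 2.65 TPM in the APOA1-high E18 regions, a difference of 10.70. Fetuin-A (AHSG) had 627, 3594 and 10220 TPM in the E20 regions, against 0, 1.46 and 19.99 TPM in the APOA1-high E18 regions, a difference of 10.17. These 3 genes shared 1 pattern: a broad, high E20 range and E18 values near the bottom of the scale.

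RBP4, the plasma carrier of retinol and the partner of TTR, had 655, 4094 and 8964 TPM in the E20 regions, against 1.02, 3.33 and 193 TPM in the APOA1-high E18 regions. The E18 maximum was again embryo 1 section 3 sector 5, and the difference was 8.96. Vitronectin (VTN), a plasma and matrix protein, was an exception in its E18 level, with 255, 592 and 2029.5 TPM in the E20 regions, against 15.2, 71.4 and 166 TPM in the APOA1-high E18 regions. Its difference was 3.45. In all, 7 of 14 carrier genes were called higher and 0 lower, with a list median of 4.53, and haemopexin (HPX) and fetuin-B (FETUB) complete the 7. Without TTR, which helped to choose the E18 regions, 7 of 13 were called higher, with a median of 4.83. FETUB was listed at 0 in all 6 APOA1-high E18 regions and spanned 0.0284 to 147 TPM in the E20 regions, and without it the list median was 4.83. The lack of overlap for FETUB thus rests on 0.0284 against 0 TPM. Albumin (ALB), the main plasma protein after birth, spanned 0.141 to 226 TPM in the E20 regions and 0 to 0.336 TPM in the APOA1-high E18 regions, so its ranges overlapped. Ceruloplasmin (CP), which carries copper, was low in both, at 0 to 6.81 TPM in the E20 regions and 0.969 to 7.93 TPM in the APOA1-high E18 regions.

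Coagulation and protease inhibitor genes held 12 higher calls among 19 and 0 lower ones, with a list median of 4.52. All 3 fibrinogen chains were among them. FGB had 2352, 17507 and 37517 TPM in the E20 regions, against 0.162, 36.4 and 189 TPM in the APOA1-high E18 regions, a difference of 9.34. FGG differed by 10.40 and FGA by 9.85. The E18 levels of FGB were not uniform: 189 and 58.2 TPM in embryo 1 section 3 sector 5 and section 1 sector 3, 58.2 in embryo 2 section 6 sector 7, and 0.162 in embryo 1 section 3 sector 4. The protease inhibitor SERPINA1 (alpha-1-antitrypsin) had 488, 1809.8 and 4153 TPM in the E20 regions, against 0, 1.41 and 17.5 TPM in the APOA1-high E18 regions, a difference of 9.32. Plasminogen (PLG), the kininogen KNG1, the broad protease inhibitor A2M and antithrombin (SERPINC1) were also called higher, by 7.19, 6.04, 7.05 and 4.52. Prothrombin (F2) overlapped, at 26.6 to 371 TPM in the E20 regions and 2.34 to 56.2 TPM in the APOA1-high E18 regions. SERPING1, the C1 inhibitor, was at the same level in both groups, with a difference of -0.01.

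Apolipoproteins and lipid transport genes gave 8 higher calls among 14 and 0 lower ones, with a median of 4.39. Without APOA1 and APOA2, which helped to choose the E18 regions, 7 of 12 were called higher, with the same median. Besides APOA2 these were APOA4, APOB, APOC2, APOC3, APOM, MTTP and LIPC. APOB, the core protein of very-low-density lipoprotein, had 64.3, 684 and 1783 TPM in the E20 regions, against 1.52, 3.88 and 57.1 TPM in the APOA1-high E18 regions, a difference of 6.27. MTTP, which loads lipid onto APOB, had 136, 552 and 825 TPM in the E20 regions, against 1.71, 19.9 and 36.2 TPM in the APOA1-high E18 regions, a difference of 5.11. In neither gene did an E18 region reach the lowest E20 region. APOM, an apolipoprotein that carries sphingosine-1-phosphate, differed by 6.37, and APOC3, an inhibitor of lipoprotein lipase, by 7.55. PLTP was the 1 gene of the list lower at E20 by at least 2, with overlap. It had 0 to 152 TPM in the E20 regions and 39.5 to 234 TPM in the APOA1-high E18 regions. Hepatic lipase (LIPC) was listed at 0 in all 6 APOA1-high E18 regions and spanned 4.42 to 40.4 TPM in the E20 regions, and without it the list median was 4.65.

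Set against APOA1, other secreted proteins varied in proportion. AFP amounted to 26.95% to 160.0% of the APOA1 level in the E20 regions (median 86.3%) and 0.0783% to 5.90% in the APOA1-high E18 regions (median 0.764%). FGB amounted to 64.3% to 240.1% of APOA1 in the E20 regions (median 124%) and 0.0391% to 64.1% in the APOA1-high E18 regions (median 3.47%). The E18 maximum for FGB, in embryo 2 section 6 sector 7, lay just below the E20 minimum. APOA2 amounted to 12.3% to 45.03% of APOA1 in the E20 regions (median 23.1%) and 0.0743% to 49.3% in the APOA1-high E18 regions (median 2.35%), with overlap. APOA1 itself chose the E18 regions, so these shares are a description. The apolipoprotein, carrier and coagulation lists together held 1.84% to 22.4% of the summed TPM in the E20 regions and 0.193% to 1.25% in the APOA1-high E18 regions. Without the 3 genes that chose the regions, they held 1.22% to 18.5% in the E20 regions and 0.171% to 0.418% in the APOA1-high E18 regions.

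**Figure D3:**
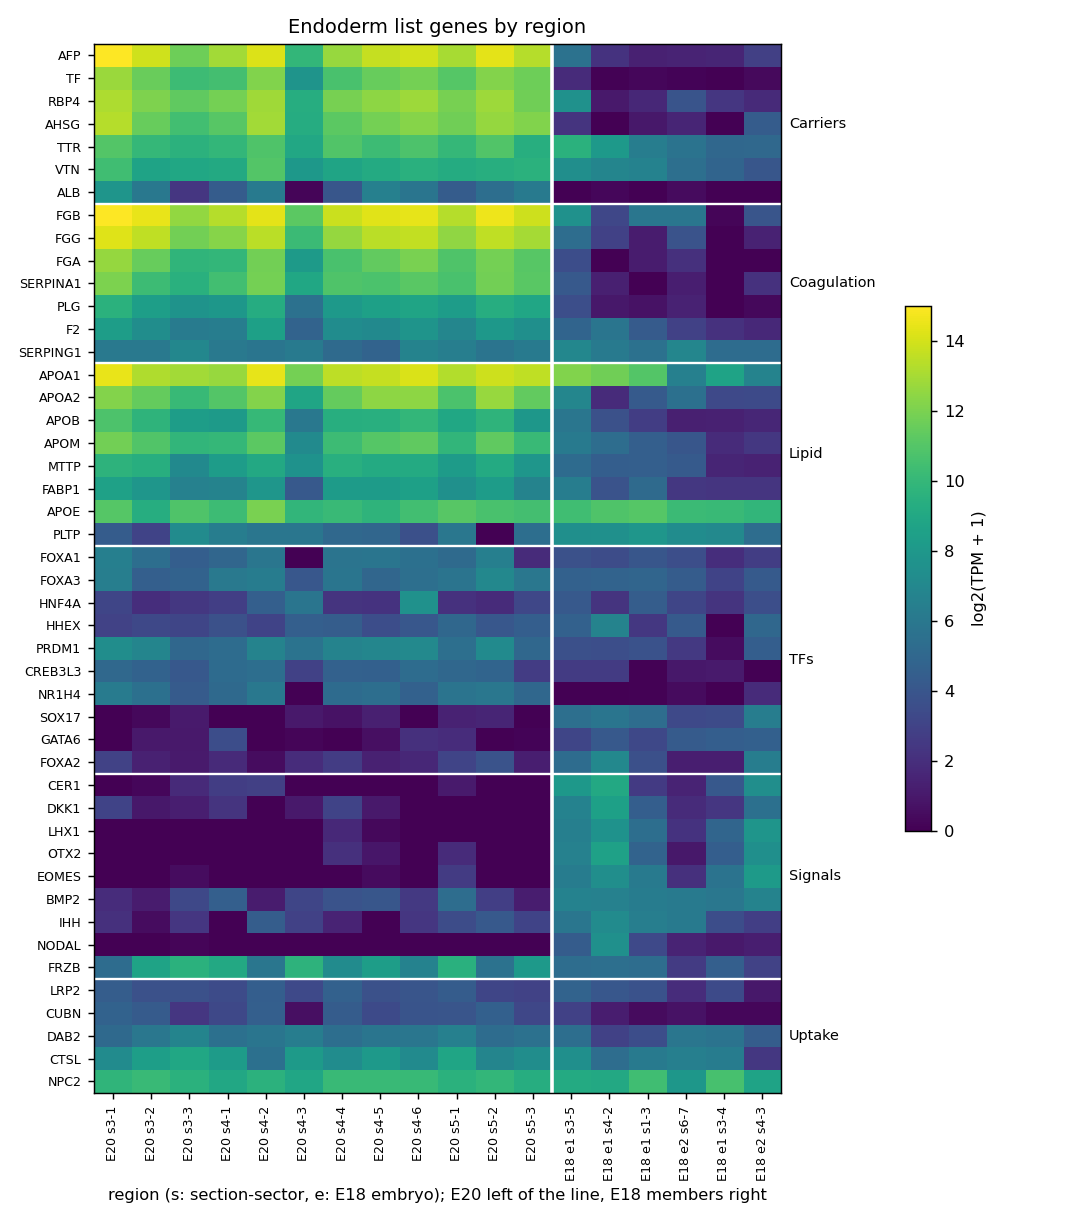
Colour gives log2(TPM + 1) of endoderm list genes (rows, grouped by list) in each region (columns), with the 12 E20 regions left of the white line and the 6 APOA1-high E18 regions right of it in falling order of score. Most rows of the upper blocks are brighter on the left than on the right. In them PLTP runs the other way, and SERPING1 and APOE are even. NPC2 is even across all 18 columns, and the signalling block is dark on the left, with FRZB as the exception.

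Endoderm transcription factors differed less than the secreted proteins. Of 16 tested, PRDM1 and CREB3L3 were called higher, SOX17 was called lower and 13 were not called, with a list median of 0.64 that was -0.73 with E20 section 3 alone. PRDM1, a zinc-finger repressor, had 31.1, 104 and 164 TPM in the E20 regions, against 0.439, 11.4 and 21.5 TPM in the APOA1-high E18 regions, a difference of 3.18. CREB3L3, an activator of apolipoprotein genes in liver, spanned 5.23 to 41.5 TPM in the E20 regions and 0 to 5.00 TPM in the APOA1-high E18 regions. SOX17, a factor of early endoderm, had 0, 0.463 and 1.94 TPM in the E20 regions, against 8.79, 41.6 and 80.2 TPM in the APOA1-high E18 regions, a difference of -4.33. GATA6 was also lower at E20 by -3.10, with overlapping ranges.

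The hepatic regulators overlapped. HNF4A had a median of 5.11 TPM in the E20 regions (2.57 to 189) and 9.51 in the APOA1-high E18 regions (3.804 to 20.2), and its difference was 0.00. HHEX had a median of 13.8 TPM in the E20 regions and 21.3 in the APOA1-high E18 regions, also with a difference of 0.00. That value includes embryo 1 section 3 sector 4, where HHEX was listed at 0. Over all settings the HHEX difference ranged from -0.86 to 0.66. FOXA3 differed by 1.27 and FOXA1 by 1.56, each with overlapping regions. The bile acid receptor NR1H4 differed by 4.55 but overlapped through E20 section 4 sector 3, where it was listed at 0. FOXA2, the forkhead factor of node and endoderm, had the other sign, with a difference of -2.19 and overlapping ranges.

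Signalling and anterior genes ran opposite to the secreted proteins. Of 19 listed genes 17 were in the table, and 4 of these did not pass the filter. Of 13 tested, 0 were called higher and 3 lower (NODAL, LHX1 and BMP2), with a list median of -3.15. Over all settings that median ranged from -3.89 to -1.22. LHX1, a homeobox gene of anterior endoderm and node, had 0, 0 and 2.25 TPM in the E20 regions, against 3.68, 64.8 and 229 TPM in the APOA1-high E18 regions, a difference of -5.58. BMP2, a BMP ligand, was the most even of the group at E18, with 1.22, 6.79 and 40.2 TPM in the E20 regions, against 59.9, 86.9 and 103 TPM in the APOA1-high E18 regions, a difference of -3.50. The NODAL ligand itself reached 0.138 TPM in the E20 regions and spanned 1.04 to 182 TPM in the APOA1-high E18 regions. It passed the filter only through the E18 regions, so its ranges could not overlap. LHX1, with a median of 0 TPM in the E20 regions, also entered mainly through the E18 regions.

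CER1, OTX2, EOMES and DKK1 had differences of -4.71, -5.07, -5.67 and -3.86, with overlapping ranges. OTX2 and EOMES, listed at 0 in most E20 regions, entered mainly through the E18 regions, as NODAL and LHX1 did. The list median thus rests in part on genes admitted by the group where they are high. For OTX2 and EOMES, embryo 2 section 6 sector 7 was the only E18 region inside the E20 range, at 0.929 and 3.26 TPM. CER1 reached 6.22 TPM in the E20 regions, and 2 E18 regions lay below that, embryo 2 section 6 sector 7 at 1.76 TPM and embryo 1 section 1 sector 3 at 4.86 TPM. DKK1 reached 7.06 TPM in the E20 regions, and 2 E18 regions lay below that, at 2.60 and 4.22 TPM. The hedgehog ligand IHH differed by -3.10, with up to 20.2 TPM in the E20 regions and up to 148 TPM in the APOA1-high E18 regions. FRZB, a secreted WNT antagonist, was the only gene of the list with a difference of at least 2 in the other direction, at 3.42, with 38.4 to 822 TPM in the E20 regions and 5.09 to 44.0 TPM in the APOA1-high E18 regions. Since CER1, OTX2, EOMES and LHX1 also belong to definitive endoderm and streak, and the E18 regions held epiblast genes, their source among cell types was not tested.

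**Figure D4:**
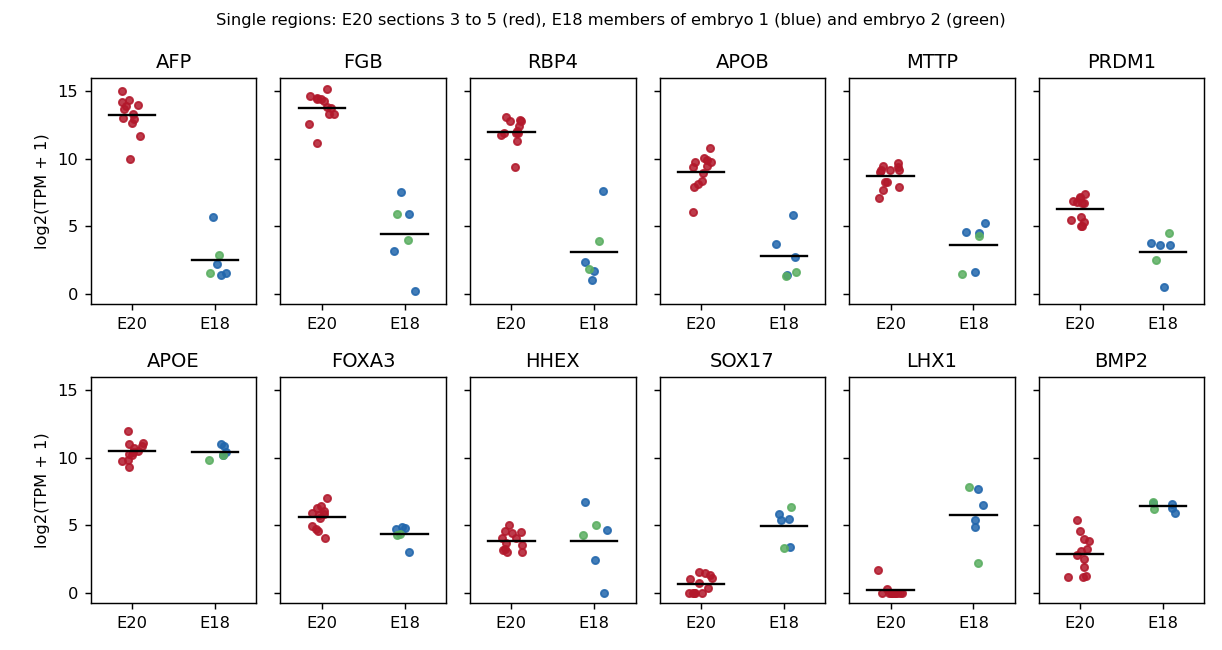
Each panel shows log2(TPM + 1) of 1 gene, each point is a region and the black bar is the group mean, with E20 sections 3 to 5 (red) left and the APOA1-high E18 regions (embryo 1 blue, embryo 2 green) right. AFP, FGB, RBP4, APOB, MTTP and PRDM1 lie higher in E20 without overlap, APOE, FOXA3 and HHEX overlap, and SOX17, LHX1 and BMP2 lie lower in E20 without overlap.

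Genes of uptake, iron handling, epithelium and basement membrane gave few calls. Of 14 endocytic and lysosomal genes 0 were called in either direction, with a median of 0.64. The receptor LRP2 (megalin) had 6.80 to 23.9 TPM in the E20 regions and 0.985 to 26.5 TPM in the APOA1-high E18 regions, while its partner cubilin (CUBN) had a median of 14.1 TPM in the E20 regions and 0.501 TPM in the APOA1-high E18 regions, with overlap. STRA6, the cell-surface receptor for RBP4, had a difference of -2.28, with a median of 1.82 TPM in the E20 regions and 21.4 TPM in the APOA1-high E18 regions. Of 8 iron and haem genes only erythropoietin (EPO) was called higher, at 2.81 to 29.7 TPM in the E20 regions and 0 to 1.36 TPM in the APOA1-high E18 regions. The list median was 0.75.

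Of 12 genes of hepatic-type metabolism, 2 were called higher and 0 lower, with a median of 0.57. The gluconeogenic enzyme FBP1, called higher, had 23.5, 61.9 and 152 TPM in the E20 regions, against 0, 1.40 and 5.24 TPM in the APOA1-high E18 regions, a difference of 4.65. CYP26A1, which degrades retinoic acid, had a difference of -5.03 with overlap, at a median of 0.0458 TPM in the E20 regions and 69.9 TPM in the APOA1-high E18 regions. Of 11 epithelial genes and 10 basement membrane genes 0 were called, with medians of 0.60 and -0.13. The basement membrane median had the other sign, 0.16, after quantile normalization, and was 0.044 without embryo 1 section 3 sector 5 and 0.063 without embryo 2 section 6 sector 7. Within that list the nidogen NID2 differed by 3.16 and the laminin chain LAMB1 by 1.93. The cadherin CDH2 differed by -2.20, with 1.73 to 98.8 TPM in the E20 regions and 83.3 to 234 TPM in the APOA1-high E18 regions. Of 3 complement genes tested, 0 were called, with a median of 1.09.

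Shared endoderm genes were those at 10 TPM or more in all 18 regions with a difference under 1 in either direction. They numbered 11 of 134 endoderm genes (8.21%), against 14.3% of all genes tested, so endoderm lists held no larger share than the rest. They were APOE, the ferritin chains FTH1 and FTL, KRT19, NPC2, LRPAP1, EZR, CTSB, SERPING1, LAMC1 and TJP1. APOE, the apolipoprotein of lipid uptake, had 639, 1424 and 3965 TPM in the E20 regions, against 932, 1274 and 2096 TPM in the APOA1-high E18 regions, a difference of 0.07. It was not particular to these E18 regions, since the other 44 had a median of 485 TPM and a maximum of 3724. For KRT19, LRPAP1, EZR, CTSB, SERPING1, LAMC1 and TJP1, too, the maximum of the other 44 exceeded every APOA1-high E18 region. FTH1, FTL and NPC2 exceeded that maximum in 1 APOA1-high E18 region each. The mean log2(TPM + 1) of EZR and TJP1 was higher in the other 44, at 7.21 against 7.11 and 5.47 against 5.27. The rest of the 11 had lower means there. NPC2, a lysosomal cholesterol carrier, had medians of 849 TPM in the E20 regions and 550.3 TPM in the APOA1-high E18 regions, and the keratin KRT19 had 977 and 776 TPM in the same order. Ferritin genes have many processed copies in primate genomes, so their values are uncertain.

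Some of the endoderm list genes were nonetheless highest in the APOA1-high E18 regions among all E18 regions, a description that shares its samples with the rule. Of 131 endoderm genes other than the 3 that chose the regions, 10 (7.63%) exceeded all 44 other E18 regions in at least 3 of the 6, against 0.347% of all genes tested. FGB and MTTP did so in 4 regions, and APOB, APOM, FABP1, IHH, SERPINF2, SLC39A5, SLC40A1 and VTN in 3. APOB, for example, was 57.1, 12.1 and 5.72 TPM in the 3 highest regions, against at most 2.52 TPM in the other 44. AFP exceeded the others in 1 region, at 49.3 TPM against a maximum of 8.08 TPM, and TF and ALB in 0. 

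The 6 E18 regions differed among themselves. Embryo 1 section 3 sector 5 held the highest values of AFP, RBP4, FGB, FGG, APOB, APOM, VTN and FABP1, and its immune and decidual list level of 4.44 was the highest of the 6. Embryo 1 section 4 sector 2 held the highest CER1 (531 TPM), DKK1 (368 TPM), OTX2 (381 TPM), HHEX (105 TPM), FOXA2 (128 TPM) and IHH (148 TPM), next to DPPA5 at 413 TPM and TBXT, a streak factor, at 50.4 TPM. Embryo 2 section 6 sector 7 had the lowest CER1, OTX2, LHX1 and EOMES of the 6, but BMP2 at 72.9 and IHH at 72.1 TPM. Its COL3A1 was 198 TPM. Embryo 1 section 3 sector 4 combined HAND1 at 417 TPM with HHEX listed at 0. Embryo 2 section 4 sector 3 had the highest SOX2, SOX17 (80.2 TPM), LHX1 (229 TPM) and EOMES (292 TPM) and the lowest VTN (15.2 TPM).

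Among the 12 E20 regions, section 4 sector 3 stood lowest in AFP (986 TPM), FGB (2352 TPM) and APOA1 (3658 TPM), and had COL3A1 at 1505 TPM and HBZ at 1279.9 TPM. Section 3 sector 1 stood highest in AFP (33654 TPM), FGB (37517 TPM) and ALB (226 TPM), with COL3A1 at 171 TPM and HBZ listed at 0. HNF4A was uneven, at 189 TPM in section 4 sector 6 and 56.2 TPM in section 4 sector 3, against 2.57 to 22.7 TPM elsewhere. Without the 4 regions highest in HBZ, 253 genes were called higher and 47 of them were endoderm genes.

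Markers of other cell types moved with the comparison. Of 10 pluripotent epiblast genes 5 were called lower (DPPA5, L1TD1, DNMT3B, SALL2 and FOXH1) and 0 higher, with a median of -2.85, and the list level was 0.84 to 1.95 in the E20 regions and 3.10 to 5.54 in the APOA1-high E18 regions. DPPA5 was listed at 0 in all 12 E20 regions, so it passed the filter only through the E18 regions, and without it the list median was -2.80. Of 12 primitive streak genes 7 did not pass the filter, and 4 of the 5 tested were called lower (MIXL1, MESP2, FGF17 and SP5). List levels were 0 to 0.80 in the E20 regions and 1.87 to 4.21 in the APOA1-high E18 regions. FGF17 and MESP2 were listed at 0 in all E20 regions, and the list median was -4.36 with and without them. They passed the filter only because all 6 E18 regions reached 1 TPM, so their ranges could not overlap. MIXL1 and SP5 reached at most 1.77 and 1.97 TPM in the E20 regions and also entered mainly through the E18 regions. The 4 calls are therefore largely set by the filter. Of 9 definitive endoderm genes SOX17 and LHX1 were called lower, with a median of -4.71 and list levels of 0.69 to 1.84 in the E20 regions and 2.64 to 6.31 in the APOA1-high E18 regions. All of the tested genes but CXCR4 also belong to the transcription factor and signalling lists above. These calls are therefore the same ones again and not a separate result. The part of epiblast, streak and definitive endoderm cells in the lower E20 values was not tested.

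The extraembryonic mesenchyme list had a median of 1.37, with 1 of 15 genes called higher and 0 lower. It was lumican (LUM), a collagen-binding proteoglycan, at 184 to 4309 TPM in the E20 regions and 0.450 to 58.5 TPM in the APOA1-high E18 regions. Its list levels overlapped, at 3.27 to 6.16 in the E20 regions and 1.40 to 5.85 in the APOA1-high E18 regions. Blood and endothelium had 0 of 11 genes called and a median of 1.202, with levels of 2.39 to 6.38 in the E20 regions and 1.56 to 4.01 in the APOA1-high E18 regions. Amnion and surface ectoderm had GATA3 called lower among 7 genes, with a median of -1.79. Trophoblast and immune and decidual lists had 0 of 5 genes called each, with medians of -1.44 and 1.15. In each list, 5 of 10 genes did not pass the filter. The trophoblast median was 0.14 with the 3 highest E18 regions, so its sign depends on which E18 regions are compared. Without the 2 E18 regions highest in the mesenchyme list, 36 endoderm genes were called higher and 6 lower. Of all 10715 genes tested in that setting, 210 were called higher and 497 lower. Fewer regions also make a lack of overlap easier.

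**Figure D5:**
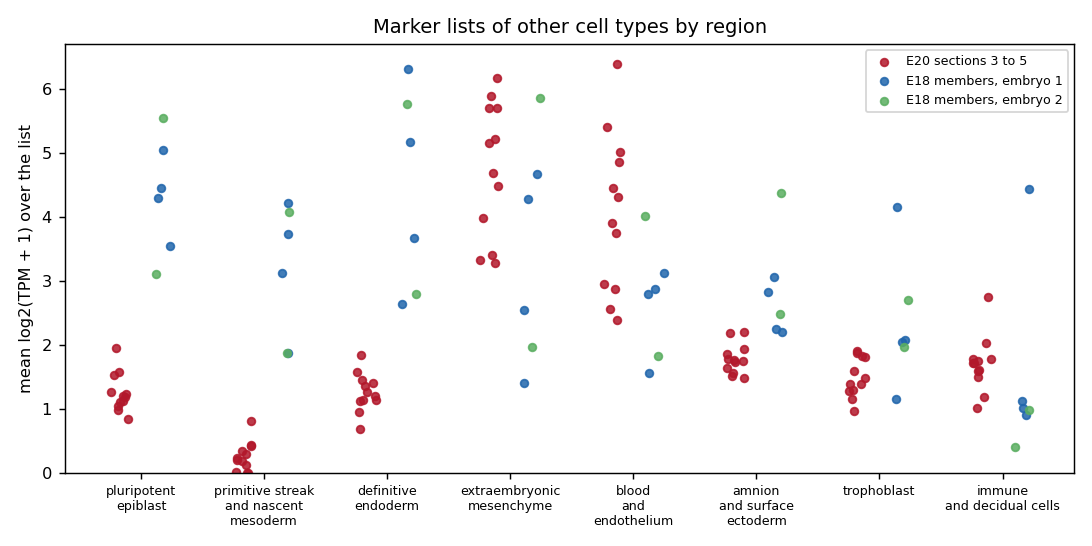
The vertical axis is the mean log2(TPM + 1) over the genes of a list, and each point is a region, with E20 sections 3 to 5 (red) left of the APOA1-high E18 regions (embryo 1 blue, embryo 2 green) in each list. Epiblast, streak and definitive endoderm levels do not overlap, mesenchyme and blood levels do, and 1 E18 region stands at 4.44 in the immune and decidual list.

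Beyond the endoderm lists, the 10 largest differences in the higher direction included AFP, TF, FGG, AHSG, FGA, FGB, SERPINA1, RBP4 and APOC3, all of them endoderm list genes. In the lower direction they included DPPA5, CNFN, HAS2, FGF17, LHX1, FOXH1, MIXL1, COL9A2 and the histone gene H2AC14, whose near-identical copies make its value uncertain. HAS2, a hyaluronan synthase, had 0, 3.59 and 9.06 TPM in the E20 regions, against 54.8, 172 and 374 TPM in the APOA1-high E18 regions. The groups did not overlap, and the difference was -5.69. CNFN differed by -5.81, COL9A2, a cartilage-type collagen chain, by -5.08, and FOXH1, the nuclear effector of NODAL, by -5.55.

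In the insulin-like growth factor system 0 of 13 genes were called higher and 1 lower, with a median of -0.40. That median was 0.023 without embryo 2 section 6 sector 7 and 0.030 without embryo 2 section 4 sector 3. The called gene was IGF2BP1, an RNA-binding protein of IGF2 transcripts. The fetal growth factor IGF2 itself differed by 3.01, with 87.3 to 1094 TPM in the E20 regions and 5.96 to 99.0 TPM in the APOA1-high E18 regions. Of 14 replication and mitosis genes MCM2 and MCM5, subunits of the replicative helicase, were called lower and 0 higher, with a median of -1.19. MCM5 had 0, 4.92 and 13.9 TPM in the E20 regions, against 19.7, 33.4 and 43.4 TPM in the APOA1-high E18 regions.

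The only design with freedom among embryos compared the mean of the 12 E20 regions with the means of the 3 highest-scoring regions of each E18 embryo, by limma with Benjamini-Hochberg adjustment at 0.05. Its spread came from the difference between 2 E18 embryos, and it holds nothing on variation among E20 embryos. Embryo 2 contributed regions scoring 4.96 to 5.93. Of 11400 genes 646 were higher (5.67%) and 1887 lower (16.6%), and of 132 endoderm genes other than APOA1, TTR and APOA2, 56 were higher and 22 lower. By list, 16 of 19 coagulation genes were higher, and 11 of 14 signalling genes were lower. In lists with few calls above, 4 of 14 uptake genes were higher and 1 lower, and 3 of 10 basement membrane genes were higher and 1 lower. AFP was higher by 10.95 ± 0.46 (SE, adjusted p = 9.21e-44, limma), APOB by 6.36 ± 0.57 (adjusted p = 7.59e-18, limma) and PRDM1 by 2.48 ± 0.54 (adjusted p = 0.000229, limma). LHX1 was lower by -6.02 ± 0.59 (adjusted p = 2.36e-15, limma), BMP2 by -3.58 ± 0.48 (adjusted p = 2.24e-09, limma) and SOX17 by -4.78 ± 0.65 (adjusted p = 2.40e-09, limma). LHX1 entered mainly through the E18 regions, where it is high, so its p-value adds no separate support. For APOE adjusted p was 0.74, for HHEX 0.36 and for FOXA3 0.125 (limma), which does not show that their levels were equal.

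These p-values lean on a spread pooled over genes. With medians over regions in place of means, 25 genes were higher and 21 lower. AFP, TF, RBP4, AHSG, the 3 fibrinogen chains, SERPINA1, LHX1, CER1 and EOMES passed there, with adjusted p of 0.0179 for AFP and 0.0418 for LHX1 (limma). For LHX1 and EOMES, which entered mainly through the E18 regions, this is no separate support. APOB (0.0657), BMP2 (0.0600), SOX17 (0.0593) and PRDM1 (0.0849) missed the threshold in that setting (limma, adjusted p). With no filter on low values 0 genes passed (limma, 2487 at an unadjusted p under 0.05).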

How the data were processed

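Polyadenylated RNA of laser-captured regions was sequenced. The authors deposited TPM values for 17023 genes in 86 regions. The listed genes sum to 645385 to 777987 TPM in the 18 regions compared, so the table holds part of each library. The submitters' processing notes name fastp, HISAT2 and StringTie without versions or order, and the genome build is not given in the sources used here. Coordinates and sequences are therefore not printed. TPM keeps no counts, so depth is unknown and no counting interval is given. Groups and stages were taken from sample titles.

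Values were used as log2(TPM + 1), so differences understate changes of low genes. The calls by difference and range need a difference of 2 without overlap and have no test. The 3 genes of the rule were described only. Embryo means were tested with limma 3.58.1 under R 4.3.3, using moderated variances with a trend and 1 residual degree of freedom. Tables were handled with pandas 2.3.3 and numpy 2.4.6 in Python 3.11.15, and figures drawn with matplotlib 3.10.9. The calculations were tested on simulated data.

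The members and the 21 gene lists were chosen with earlier results of these data known. Named genes are endoderm list members, the 10 largest differences in each direction without overlap and with a mean TPM of at least 5 in the higher group, the shared genes as defined, and other lists by counts with examples. Single regions and further genes were picked as examples after their values were seen, among them SOX2, TBXT and CD74. The alternatives changed the pseudocount to 0.1, dropped the filter or made it stricter (9 or more regions with a TPM of 5 or higher), or used quantile normalization, removal of mitochondrially encoded genes, medians over regions, other numbers or choices of regions, and leaving out each E18 region. Of the list genes, 16 of the 171 endoderm genes are not analysed here because they had no row under these symbols. A few further genes are not reported here.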

Additional observations from a re-analysis of the deposited data

Results flagged for a closer look

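A region counts as far from the others when its gap to the nearest, as a share of the range of the 6, is above Dixon's 95% critical value. Of 66 groups checked among the 6 APOA1-high E18 regions (45 genes and 21 lists), 6 met this. Chance gives about 1 in 20 for independent values. Regions of the same embryo are not independent, so the 6 cannot be set against that rate. Embryo 1 section 3 sector 5 stood high in APOA4 (3.09 TPM), AFP (49.3 TPM), TF (2.65 TPM) and the immune and decidual list (level 4.44). That region also had the highest score by the genes that chose the 6. APOA4 was listed at 0 in the rest of the 6, so any value there would be flagged. Embryo 2 section 6 sector 7 stood high in KNG1 at 0.756 TPM, which is under 1 TPM. Embryo 1 section 3 sector 4 stood low in the list of endoderm transcription factors, at a level of 1.65. Without embryo 1 section 3 sector 5, 34 endoderm genes were called higher in the E20 regions and 3 lower. Of all 10956 genes tested in that setting, 190 were called higher and 454 lower.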

How the results depend on the processing

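The 158 higher and 431 lower calls became 273 and 254 after quantile normalization, 350 and 847 with the 6 highest E20 regions, 289 and 818 with E20 section 3 alone, 258 and 790 with section 5 alone and 241 and 968 with the embryo 2 regions of the 6 alone. Lower calls were 711 with section 4 alone and 222 with the stricter filter, where fewer genes are tested. Higher calls were 253 without the 4 regions highest in HBZ, an alternative chosen after seeing the data, as were the 3 highest E18 regions and leaving out the mesenchyme-high regions. The 32 higher endoderm calls became 53 with the 6 highest E20 regions. The 4 lower ones became 1 with the stricter filter, 2 after quantile normalization, 7 with the 6 highest E20 regions, 9, 7 and 10 with sections 3, 4 and 5 alone, and 8 with the 3 highest E18 regions. Leaving out each E18 region in turn gave 160 to 199 higher and 395 to 511 lower calls, with 32 to 36 and 3 to 5 among endoderm genes. The median of the definitive endoderm list was 0.78 with the stricter filter, where fewer of its genes are tested. Medians nearer 0 also took the other sign: trophoblast in 2 of 24 settings (0.48 with the stricter filter), the insulin-like growth factor system and basement membrane in 8 each (highest 0.31 and 0.20), endoderm transcription factors in 1 (-0.73 with E20 section 3 alone), and immune and decidual genes in 1 (-0.095 with no filter). Of 3250 single-gene differences over 24 settings (143 genes), 66 moved by more than the spread between regions. The other sign appeared in 23 of 98 genes that were not called. Among them was APOE, at 0.07, against -0.048 after quantile normalization and -0.27 with the 3 highest E18 regions. The other sign appeared in 0 of 45 called genes, whose regions do not overlap by definition. Settings that only drop regions, use medians or change the pseudocount or filter could therefore not turn it. In limma, the 646 higher and 1887 lower genes became 25 and 21 with medians over regions and 0 and 0 with no filter (2487 at an unadjusted p under 0.05), and the lower ones 557 after quantile normalization and 1251 with the stricter filter. For changes other than the stricter filter and the smaller sets of regions, the cause was not tested. Leaving out an E18 embryo leaves limma no residual degrees of freedom. No paired analysis was possible because section and sector numbers do not pair regions across embryos. Depth is unknown, so genes listed at 0 may be missed.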
